A study of Rattus norvegicus with 53 samples.

Results

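The translation initiation and elongation factors are described here as 48 genes whose symbol in the platform annotation begins with Eif1 to Eif6 or with Eef1 or Eef2. The eIF2 kinases, Eif4e, Eif4ebp1, Eif4ebp2, Eif4a1, Eif4a2, Eif4g1, Eif4g2 and Eef1e1 were left out of this choice. Of the 48 genes, 38 carry an Eif symbol (initiation) and 10 an Eef symbol (elongation), out of 11577 genes tested on the array. The genes were chosen by symbol. Each gene was read at its brightest probe set, the group of oligonucleotides on the array that reports 1 transcript, and all 48 genes passed the filter on low values. Another 24 probe sets carry the symbol of 1 of these genes, and 5 probe sets that carry several symbols, among them all those of Eif5, were not counted as members.

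L6 cells, a rat skeletal muscle line, were differentiated into myotubes and kept in serum-free medium for 8 h before the experiment. The insulin culture then received 20 nM insulin, and the control culture received the same medium with 0 nM insulin. Samples were taken every 20 min and the RNA of 3 consecutive samples was pooled, which gave 8 hourly pools after the samples of time 0, taken before insulin. The whole course was run 3 times on different days with the same line, and a letter (a, b or c) is taken to name each run. The 53 arrays form 18 groups of culture and hour with 3 arrays each. Hour 3 of the insulin culture has only 2, since the 53 arrays include none of letter a for it. Both cultures share the line, the differentiation and the serum-free period, and a single cell line limits the model. The labels call the cells myoblasts, while 14 measured myotube markers had a median log2 level of 11.41 (5.32 to 13.48). Of 4 myoblast markers 1 was measured, at 10.05, and the 4 markers of proliferating cells lay between 8.75 and 10.16, so the values also show transcripts of dividing cells. Macrophage, endothelial and adipocyte markers had levels of 5.91 or lower and neuron markers of 6.57 or lower, while the 4 fibroblast markers lay between 6.42 and 12.05. None of the fibroblast, myotube or proliferation markers was called between the cultures over hours 1 to 8, while 1 of the 4 macrophage markers was. In bulk RNA, fewer cells of a type and less RNA per cell cannot be told apart.

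Translation begins when eIF2 brings the initiator tRNA to the small ribosomal subunit, where eIF3 and eIF1A hold the complex while it scans an mRNA for its start codon. The exchange factor eIF2B reloads eIF2 with GTP after each round, and eIF6 and eIF5B act on the large subunit and on subunit joining. During elongation eEF1A delivers aminoacyl-tRNA, its exchange factor eEF1B recharges it, and eEF2 moves the ribosome along the mRNA until the kinase eEF2K switches eEF2 off. Insulin is known to act on several of these proteins by phosphorylation in muscle. Only their mRNA was measured here.

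The factors were abundant transcripts. The log2 levels of the initiation genes ran from 7.01 for Eif5a2 to 12.59 for Eif5a with a median of 10.4, and those of the elongation genes from 6.62 for Eef1a2 to 14.12 for Eef1a1 with a median of 10.48. The median over all tested genes was 8.13. Signals of different probe sets also depend on their oligonucleotides, so these values order the genes only roughly. Eef1a1, the widespread form of eEF1A, held rank 4 among the tested probe sets, and Eef1a2, the form known from adult muscle and neurons, held rank 14287.

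Letter b stood apart from the other repeats before any insulin had been added. Across the 48 genes, its difference between the cultures at time 0 correlated with its difference over hours 1 to 5 at 0.93 (0.77 across all tested probe sets). The same correlation was -0.30 in letter a and -0.22 in letter c (0.025 and 0.15 across all tested probe sets). These are descriptions across genes that share their arrays. At time 0 none of the 48 genes was called by limma and 0% of all tested probe sets were (0 of the 48 genes and 205 probe sets at an unadjusted p below 0.05). Results are therefore given also relative to time 0 and with letter b removed at hours 0 to 5 (12 arrays).

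Over hours 1 to 8, 8 of the 48 genes were higher in the insulin culture and 3 were lower. The 8 higher genes were Eif1a, Eif2s1, Eif2s2, Eif2b1, Eif2b3, Eif3d, Eif3j and Eif6, all of them initiation factors, and the 3 lower genes were Eif3f, Eef2 and Eef2k. Their differences were small, 0.13 to 0.22 on the log2 scale for the higher genes (1.09-fold to 1.16-fold) and -0.18 to -0.24 for the lower genes. Calls are adjusted p-values below 0.05 from limma, adjusted by Benjamini-Hochberg over all tested probe sets. Among all tested probe sets 5.53% were called higher and 6.63% lower (12.2% either way), against 16.7% and 6.25% of the 48 genes. The share called lower was thus near that of all probe sets, which is not a background of genes. Of the 11577 tested genes, each at its brightest probe set, 666 were called higher and 965 lower, with a median difference of -0.0038. Split by step, the initiation genes had 8 higher and 1 lower of 38, and the elongation genes had none higher and 2 lower of 10. The median of the limma differences was 0.032 for initiation, 0.014 for elongation and 0.0037 for all tested probe sets. Medians taken within each letter and then averaged were 0.033 for initiation and -0.0044 for elongation. With the letter as a block in the fit, 13 of the 48 were called higher and 5 lower, against 11.7% and 15.2% of all tested probe sets.

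These calls, and the standard errors and intervals given here for called and uncalled genes, take the arrays of a letter at different hours as separate samples. When each letter was reduced to 1 mean per culture, none of the 11 genes was called, with adjusted p = 1 without the block and 0.175 to 0.38 with it. Without the block, 1 mean per letter raised the standard error from 0.03 to 0.083 for Eif2s2. It rose from 0.02 to 0.058 for Eef1a1 and from 0.05 to 0.11 for Eif2b5. With the block these standard errors were 0.053, 0.04 and 0.059, while that of Eef1a2 fell from 0.053 to 0.045 and that of Eef1akmt4 from 0.075 to 0.058. For every other called gene, too, 1 mean per letter with the block gave a larger standard error. It rose from 0.034 to 0.049 for Eif3f and from 0.048 to 0.08 for Eef2. The standard errors of the called genes, and all intervals given except that of Eef1a2, thus rest on a smaller spread than with letters as the samples. Without letter b at hours 0 to 5, only Eif2s2 and Eif3f stayed below the threshold. When the time 0 difference was subtracted, no gene of the 48 and no tested probe set was called (limma, 1 of the 48 and 511 probe sets at an unadjusted p below 0.05), a contrast that rests on only 3 arrays per culture at time 0.

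**Figure D1:**
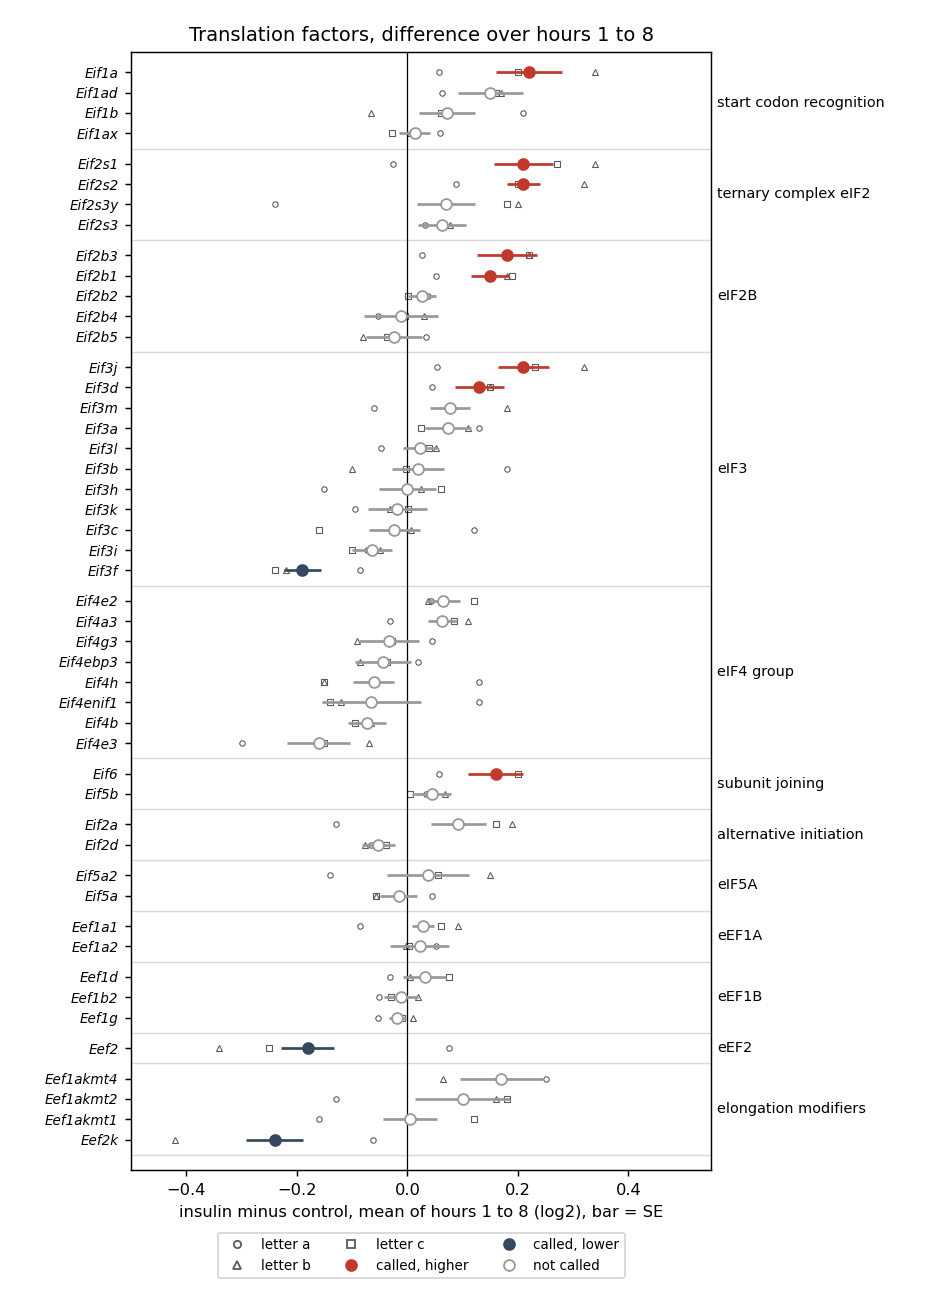
Insulin minus control difference of the 48 factors, averaged over hours 1 to 8 (x axis, log2), grouped by role. Large circles are limma estimates with their standard errors, filled where called, and small symbols are the differences within letters a, b and c. The 8 filled red circles lie between 0.13 and 0.22, and the 3 filled dark circles between -0.24 and -0.18.

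Of the 4 genes of eIF2, Eif2s2 and Eif2s1 were called higher. Eif2s2, the beta subunit of eIF2, had log2 levels of 12.08, 12.36 and 12.47 (lowest, median and highest of 23 arrays) in the insulin culture, against 11.96, 12.13 and 12.22 in 24 control arrays. The ranges overlapped only at low insulin arrays, all from letter a, and the insulin array was above its control in 21 of 23 pairs of the same letter and hour. The difference was 0.21 ± 0.03 (SE; 95% interval 0.15 to 0.27; adjusted p = 3.63e-06). Letter a gave 0.088, letter b 0.32 and letter c 0.20. Eif2s2 was still called without each letter in turn, at 0.16 without letter b (adjusted p = 0.0446) and 0.17 without letter b at hours 0 to 5 (adjusted p = 0.00462). At time 0 its difference was already 0.15 (adjusted p = 1), so hours 1 to 8 exceeded time 0 by 0.056 (adjusted p = 1).

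Eif2s1 encodes the alpha subunit, the one that the eIF2 kinases phosphorylate. Its levels were 10.43, 10.99 and 11.21 in the insulin culture, against 10.48, 10.73 and 11.02 in the control culture. The ranges overlapped widely. The difference was 0.21 ± 0.054 (SE; adjusted p = 0.00642), but letter a gave -0.026 while letters b and c gave 0.34 and 0.27. Eif2s3, the gamma subunit, and its Y-linked copy Eif2s3y differed by 0.063 and 0.07 without passing the test. The call of Eif2s1 was lost without letter b (0.16, adjusted p = 0.412) and without letter c (0.18, adjusted p = 0.0805). At time 0 Eif2s1 differed by 0.17, and relative to time 0 by 0.041 (adjusted p = 1).

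eIF2B is built of 5 different subunits, all of which were measured. Eif2b1 (alpha) had levels of 9.51, 9.79 and 9.92 in the insulin culture, against 9.47, 9.61 and 9.78 in the control culture, and was above its control in 21 of 23 pairs. The ranges overlapped, with most insulin arrays in the upper part. The difference was 0.15 ± 0.034 (SE; adjusted p = 0.0021). Eif2b3 (gamma) had 8.74, 9.15 and 9.36 in the insulin culture, against 8.59, 8.87 and 9.23 in the control culture, which again overlapped, with a difference of 0.18 ± 0.054 (SE; adjusted p = 0.0256). Eif2b2 (beta), Eif2b4 (delta) and Eif2b5, the catalytic epsilon subunit, did not pass over hours 1 to 8, at 0.027, -0.011 and -0.024. For Eif2b5 the 95% interval of the difference ran from -0.13 to 0.078. Both called subunits lost the call without letter b (0.14, adjusted p = 0.152 for Eif2b1, and 0.15, adjusted p = 0.282 for Eif2b3) and without letter c (0.13, adjusted p = 0.114, and 0.15, adjusted p = 0.34). Relative to time 0, where they differed by 0.11 and 0.096, they differed by 0.047 and 0.079 (adjusted p = 1 each).

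**Figure D2:**
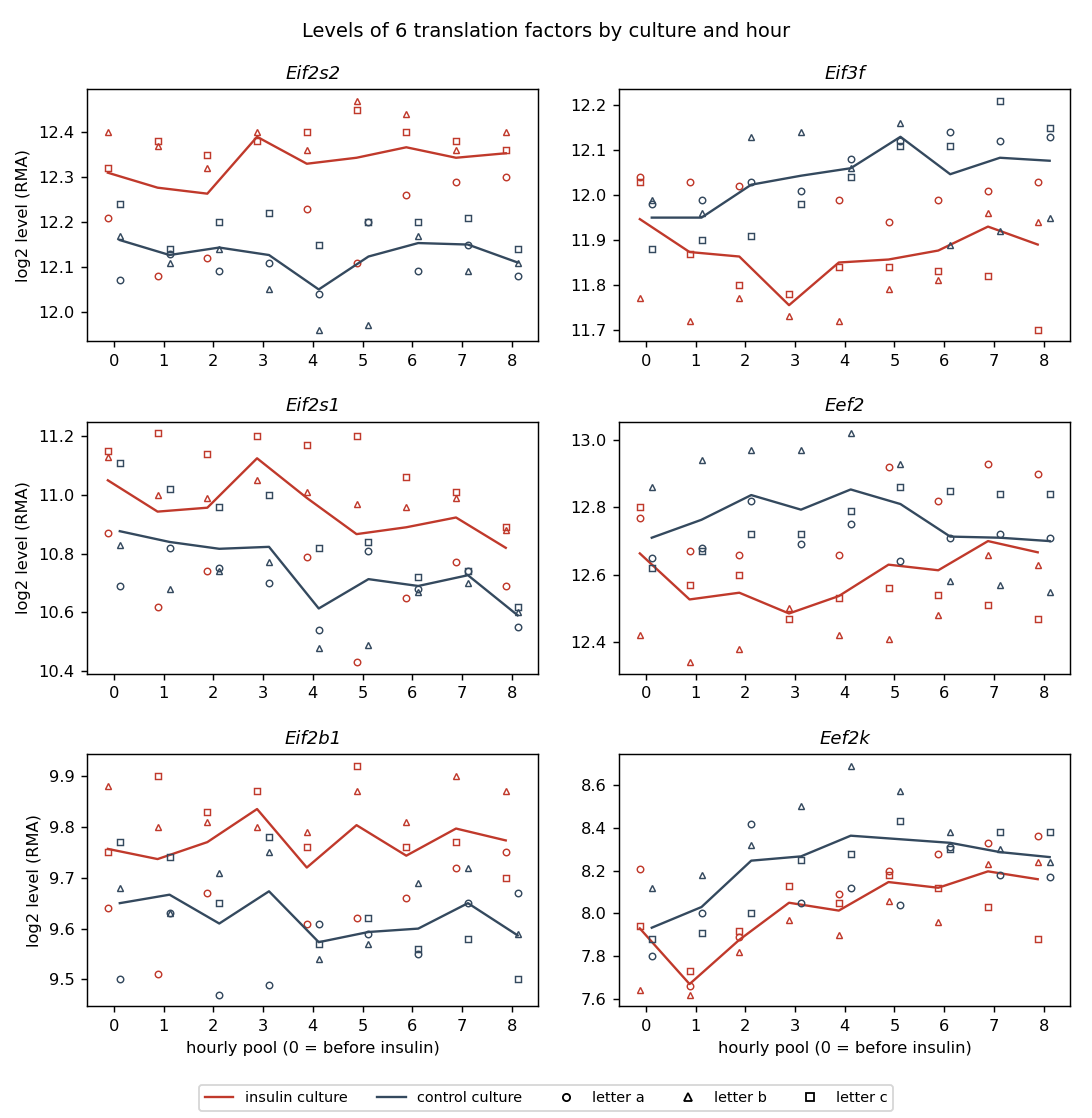
Log2 levels of 6 factors (y axis) by hourly pool (x axis, 0 before insulin) in the insulin culture (red) and the control culture (dark). Symbols are single arrays of letters a, b and c and lines join group means. Eif2s2 and Eif2b1 lay above control at every hour including time 0, and Eif3f lay below control at hours 1 to 8 with a difference of -0.0033 at time 0.

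Eif1a belongs to the eIF1A family that supports scanning. It had levels of 9.91, 10.28 and 10.71 in the insulin culture, against 9.72, 10.00 and 10.48 in the control culture, and was above its control in 20 of 23 pairs. The ranges overlapped. The difference was 0.22 ± 0.059 (SE; adjusted p = 0.0114), and all 3 other probe sets of Eif1a were also called higher, by 0.24 to 0.35. Eif1ax, Eif1b and Eif1ad, a gene that shares the eIF1A domain, were not called, at 0.013, 0.072 and 0.15, although a fit blocked on letter called Eif1ad (adjusted p = 0.00107). The call of Eif1a was lost without letter b (0.15, adjusted p = 0.47) and without letter c (0.22, adjusted p = 0.069). At time 0 it differed by 0.15, and relative to time 0 by 0.068 (adjusted p = 1).

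eIF3 is the large scaffold that the small subunit carries during initiation, and 11 of its genes were members. Of these, Eif3d and Eif3j were higher, Eif3f was lower and 8 did not pass the test. Eif3j, a loosely bound subunit, had levels of 10.51, 10.95 and 11.37 in the insulin culture, against 10.36, 10.78 and 11.00 in the control culture. It was above its control in 21 of 23 pairs although the ranges overlapped. The difference was 0.21 ± 0.046 (SE; adjusted p = 0.00168), and its other probe set gave 0.23 (adjusted p = 0.00715). Eif3j was still called without letter c (0.20, adjusted p = 0.0158) but not without letter b (0.15, adjusted p = 0.247), and it differed by 0.089 at time 0 and by 0.12 relative to it (adjusted p = 1).

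Eif3d, a subunit that can itself bind the cap of certain mRNAs, had levels of 11.16, 11.55 and 11.73 in the insulin culture, against 11.19, 11.32 and 11.58 in the control culture. Its difference of 0.13 ± 0.044 (SE; adjusted p = 0.0445) was close to the threshold, was lost without the filter on low values (adjusted p = 0.0596), and was lost without letter b (0.12, adjusted p = 0.439) or letter c (0.12, adjusted p = 0.26). Relative to time 0, where it was 0.07, it was 0.061 (adjusted p = 1). Eif3a, the largest subunit, differed by 0.074 (95% interval -0.011 to 0.16; adjusted p = 0.273). The remaining 7 members of eIF3 lay between -0.064 for Eif3i and 0.077 for Eif3m. With the letter as a block, Eif3a (adjusted p = 0.0189) and Eif3m (0.0172) were called higher and Eif3i (0.0143) lower. A dim second probe set of Eif3h differed by 0.31 (adjusted p = 0.0287), while its brightest differed by 2.4e-05.

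Eif3f moved the other way. This subunit is known in muscle as a target of the atrophy ubiquitin ligase MAFbx. Its levels were 11.70, 11.84 and 12.03 in the insulin culture, against 11.89, 12.07 and 12.21 in the control culture. The insulin array was above its control in only 2 of 23 pairs, and the ranges overlapped between 11.89 and 12.03. The difference was -0.19 ± 0.034 (SE; 95% interval -0.26 to -0.12; adjusted p = 1.16e-04), and letters a, b and c gave -0.086, -0.22 and -0.24. At time 0 it was -0.0033 over all letters, and 0.062, -0.22 and 0.15 by letter. Eif3f was still called without each letter in turn (adjusted p = 0.000352 to 0.0368) and without letter b at hours 0 to 5 (-0.14, adjusted p = 0.0289).

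Eif6 keeps free large subunits from joining prematurely. Its levels were 10.63, 10.93 and 11.15 in the insulin culture, against 10.54, 10.71 and 11.07 in the control culture, with much overlap. The difference was 0.16 ± 0.05 (SE; adjusted p = 0.0327). Of the 8 higher genes it alone had a negative difference at time 0, -0.066, with 0.028 and 0.046 in letters a and b and -0.27 in letter c. Eif5b, the GTPase of subunit joining, differed by 0.044 without passing, and of its 2 other probe sets 1 was called, at 0.15 (adjusted p = 0.0454). The call of Eif6 was lost without letter b (0.16, adjusted p = 0.35) and without letter c (0.13, adjusted p = 0.237), and relative to time 0 it differed by 0.22 (adjusted p = 1).

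The 8 members with Eif4 symbols are factors of mRNA recruitment, proteins that bind eIF4E, and Eif4a3, the helicase of the exon junction complex. None was called over hours 1 to 8, and their differences ran from -0.16 to 0.065. With the letter as a block, Eif4a3 (0.063, adjusted p = 0.0226) and Eif4e2 (0.065, adjusted p = 0.0142) were called higher and Eif4e3 (-0.16, adjusted p = 0.00261) lower. A second, dimmer probe set of Eif4e3 differed by 0.032 (limma, adjusted p = 0.876, and 0.898 with the block), unlike the brightest. Eif4b, a cofactor of the helicase eIF4A, differed by -0.073 (adjusted p = 0.171) and was above its control in 5 of 23 pairs. The alternative tRNA carriers Eif2a and Eif2d differed by 0.092 and -0.053. Eif5a, the hypusine-bearing factor known to act in elongation despite its name, differed by -0.016 (95% interval -0.083 to 0.051), and Eif5a2 by 0.037.

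Among the elongation factors Eef2 and Eef2k were called lower over hours 1 to 8, and no gene of eEF1A or eEF1B was called. Eef1a1 had levels of 13.99, 14.14 and 14.21 in the insulin culture, against 13.95, 14.11 and 14.22 in the control culture, which overlapped almost fully. Its difference was 0.029 (95% interval -0.012 to 0.071; adjusted p = 0.389), and without letter a it was called at 0.076 (adjusted p = 0.0145). Eef1a2 differed by 0.022 (-0.085 to 0.13). The subunits of eEF1B were as close, at -0.012 for Eef1b2 (-0.075 to 0.051), 0.031 for Eef1d (-0.047 to 0.11) and -0.018 for Eef1g (-0.049 to 0.014). A dim second probe set of Eef1g differed by 0.24 (adjusted p = 0.00518), unlike the brightest.

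Eef2, the translocase, had levels of 12.34, 12.56 and 12.93 in the insulin culture, against 12.55, 12.73 and 13.02 in the control culture. The ranges overlapped widely, and 6 of 23 insulin arrays exceeded their control. The difference was -0.18 ± 0.048 (SE; adjusted p = 0.00849), with 0.076 for letter a against -0.34 and -0.25 for letters b and c. In letter b it was -0.44 at time 0. A second, dim probe set of Eef2 differed by -0.016 (adjusted p = 0.846). The call was lost without letter b (-0.11, adjusted p = 0.342), without letter c (-0.15, adjusted p = 0.246) and without letter b at hours 0 to 5 (-0.093, adjusted p = 0.351).

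Eef2k, the kinase that inactivates eEF2, had levels of 7.62, 8.05 and 8.36 in the insulin culture, against 7.91, 8.29 and 8.69 in the control culture. The ranges overlapped, and 3 of 23 insulin arrays exceeded their control. The difference was -0.24 ± 0.052 (SE; 1.18-fold; adjusted p = 0.00172), and the 3 letters gave -0.062, -0.42 and -0.24. At time 0 they gave 0.41, -0.49 and 0.055. Of its 3 other probe sets 2 were bright enough to be tested, and these differed by -0.079 and -0.13 without passing (adjusted p = 0.507 and 0.321). The call was lost without letter b (-0.14, adjusted p = 0.275), without letter c (-0.24, adjusted p = 0.0561) and without letter b at hours 0 to 5 (-0.15, adjusted p = 0.127), and relative to time 0 the difference was -0.23 (adjusted p = 1).

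**Figure D3:**
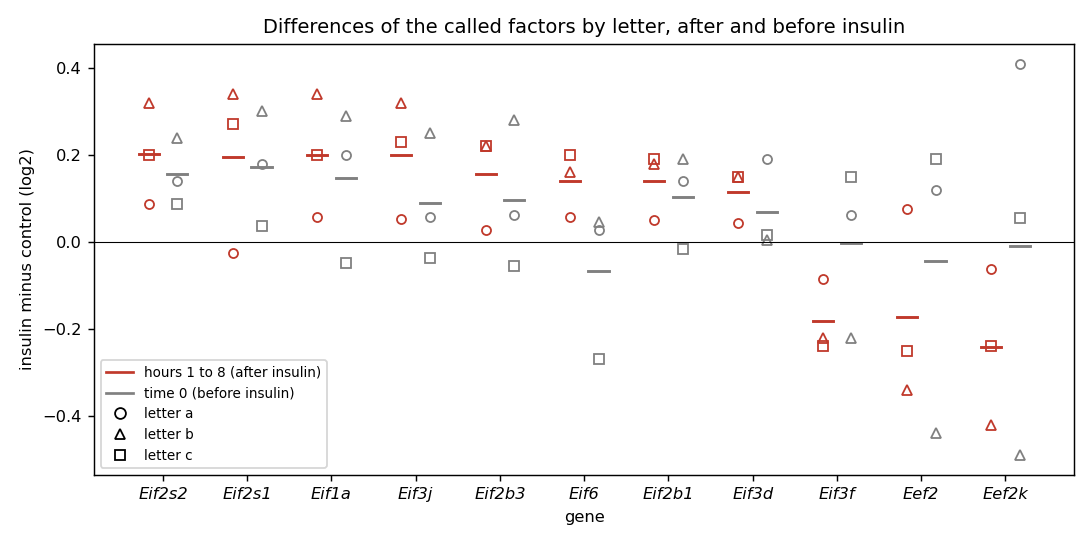
Insulin minus control difference (y axis, log2) of the 11 called factors within letters a, b and c, averaged over hours 1 to 8 (red, left) and at time 0 before insulin (grey, right). Short bars are means over the letters. For Eif2s2 all 3 letters were above 0 at time 0 as well (0.087 to 0.24), while Eif3f spanned -0.22 to 0.15 at time 0.

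The promoters of the 3 lower genes are shown because each holds the hexamer CACGTG, the E-box read by factors such as Myc and Usf. RefSeq promoter windows (GRCr8, 250 bases before to 50 after the annotated start) were found for 44 of the 48 genes. The stretches below run 5′ to 3′ along each gene, with the hexamer in capitals, and the window of Eef1akmt4, described further on, follows them.
Eef2, chr7:9189282-9189341, minus strand: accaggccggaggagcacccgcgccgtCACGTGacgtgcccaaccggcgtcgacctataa
Eef2k, chr1:184824316-184824375, plus strand: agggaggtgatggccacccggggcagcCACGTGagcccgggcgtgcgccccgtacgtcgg
Eif3f, chr1:172368976-172369035, plus strand: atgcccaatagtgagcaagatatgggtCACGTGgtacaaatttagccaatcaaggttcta
Eef1akmt4, chr11:93804130-93804189, minus strand: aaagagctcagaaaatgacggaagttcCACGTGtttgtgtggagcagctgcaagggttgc

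The hexamer, which reads the same on both strands, was present in 10 of 44 windows (22.7%), against 6.42% of all 33469 promoter windows of the same length. It was present in 3 of 3 windows of the lower genes, in 0 of 8 windows of the higher genes and in 7 of 33 windows of the genes that were not called. The hexamer CCGGAA or its reverse TTCCGG, the core read by Ets factors, was present in 22 of 44 windows (50.0%), against 15% of all windows, and in 4 of the 8 windows of the higher genes. These searches, and the one described next, were chosen with the differences known. In all of them members were counted by gene, while the background was counted by window over all annotated promoters, not only those of tested genes. The shares are therefore not a like comparison. A match describes letters in a window and was not tested as a binding site.

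A further search looked for a C followed by at least 5 pyrimidines that begins within 10 bases of the annotated start, on the strand of the gene, as mRNAs of the translation machinery often begin with such a tract. It was present in 11 of 44 windows (25%), against 17.8% of all windows, and in 4 of 9 windows of elongation genes. The starts of Eef1a1 and Eef1b2, classical genes of this kind, and of Eif3f are shown with the tract in capitals.
Eef1a1, chr8:88225049-88225078, minus strand: tggacgttCTTTTTCgcaacgggtttgccg
Eef1b2, chr9:72074085-72074114, plus strand: ggtcccggCCCTTTTTCTCCCTCagcgctg
Eif3f, chr1:172369044-172369073, plus strand: aactcacgCCCTTCCgttctagcctctctc
None of the 8 windows of the higher genes held the tract, and of the windows of the 3 lower genes 1 did, that of Eif3f.

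The time course was read by comparing early pools (hours 1 and 2) with late pools (hours 5 to 8). At hours 1 and 2 none of the 48 genes was called by limma, and 0% of all tested probe sets were (9 of the 48 genes and 2079 probe sets at an unadjusted p below 0.05). With the letter as a block 1 gene, Eif2b2, was called, lower by 0.17 (adjusted p = 0.0436), against 1.23% of all tested probe sets called lower. At hours 5 to 8, 5 genes were higher (4.02% of all tested probe sets) and 2 were lower (5.33%; 9.35% either way). The higher genes were Eif2b1, Eif2b2, Eif2b3, Eif2s2 and Eef1akmt4, so 3 of the 5 subunits of eIF2B were among them, and the lower genes were Eif3f and Eif4e3. With the letter as a block 15 were higher and 3 lower, against 9.34% and 12.5% of all tested probe sets. Without letter b altogether, 0 were higher and 1 lower, and without letter c 1 was higher and 0 lower. At single hours, no gene of the 48 was called at any of the 8 hours, against 0% of all tested probe sets at hours 1 to 3, 0.0501% at hour 4, 0.351% at hour 5, 0.332% at hour 6, 0.269% at hour 7 and 0.72% at hour 8.

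At hours 5 to 8, Eif2b1 differed by 0.17 (adjusted p = 0.0151), Eif2b2 by 0.13 (0.0135), Eif2b3 by 0.25 (0.0272) and Eif2s2 by 0.22 (3.44e-04). Eif3f differed by -0.20 (adjusted p = 0.00404). Eif4e3, a distant relative of the cap-binding protein and outside the rule for named genes, was added here after its values were seen, with a late difference of -0.28 (adjusted p = 0.0168) at -0.44, -0.20 and -0.21 in letters a, b and c.

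The difference between the cultures itself changed over time for 2 genes, Eif2b2 and Eef1akmt4, and in both insulin minus control rose (limma, change from hours 1 and 2 to hours 5 to 8, called for 0.929% of all tested probe sets upward, 0.915% downward and 1.84% in all). A block for the letter raised this to 6 genes, with 3 in the other direction, against 6.23% and 5.76% of all tested probe sets. Eif2b2 averaged 9.69 in the insulin culture and 9.86 in the control culture at hours 1 and 2, and 9.92 in the insulin culture and 9.79 in the control culture at hours 5 to 8. At hours 1 and 2 its 6 insulin arrays lay at 9.62 to 9.76, all below the 6 control arrays at 9.78 to 9.96, and at hours 5 to 8 the 12 insulin arrays lay at 9.85 to 9.97 and overlapped the 12 control arrays at 9.67 to 9.89 only slightly. The change was 0.30 ± 0.06 (SE; adjusted p = 0.00517), and in each letter the difference was negative early and positive late. At time 0 the difference was -0.13, with -0.14, -0.16 and -0.083 in letters a, b and c, beside -0.17 at hours 1 and 2 with -0.066, -0.22 and -0.22.

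Eef1akmt4 encodes a lysine methyltransferase of eEF1A. It averaged 7.43 in the insulin culture and 7.67 in the control culture at hours 1 and 2, and 7.43 in the insulin culture and 7.0 in the control culture at hours 5 to 8. The change of the difference was 0.66 ± 0.18 (SE; adjusted p = 0.0434), with late differences of 0.46, 0.36 and 0.45 in letters a, b and c after -0.15, -0.31 and -0.25 at hours 1 and 2. The movement lay in the control culture. At hours 5 to 8 minus time 0 that culture fell by 0.60 (adjusted p = 0.0181), while the insulin culture gave -0.12 (adjusted p = 0.925). Both changes over time lost their call without letter b (0.26, adjusted p = 0.291 for Eif2b2, and 0.66, adjusted p = 0.386 for Eef1akmt4) and without letter c (0.27, adjusted p = 0.166, and 0.64, adjusted p = 0.226).

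**Figure D4:**
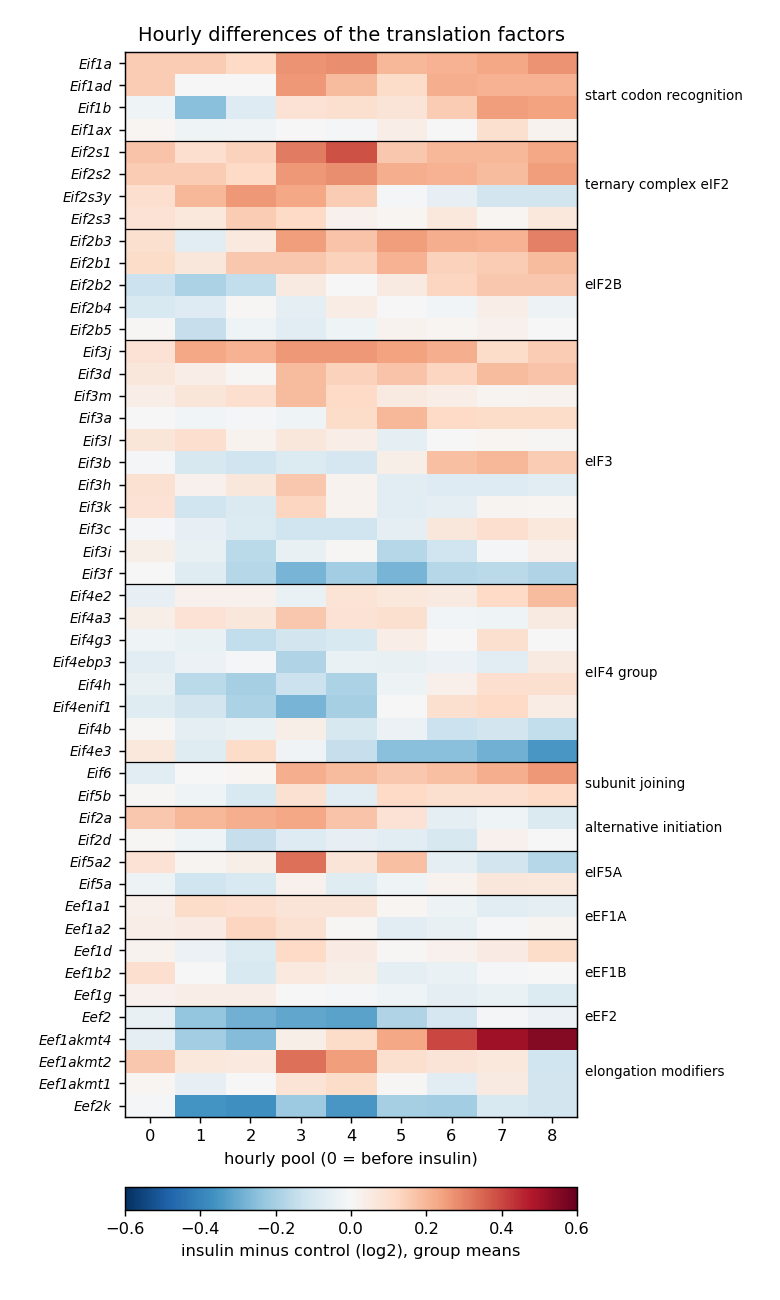
Insulin minus control difference of the 48 factors (rows, grouped by role and ordered by their mean over hours 1 to 8) at time 0 and in each hourly pool (columns). Colour gives the log2 difference of group means, red higher and blue lower in the insulin culture. Eef1akmt4 had its highest difference, 0.55, at hour 8, where Eif4e3 had its lowest, -0.35.

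Within the control culture, hours 5 to 8 against time 0 gave 1 higher and 1 lower gene of the 48, Eef2k and Eef1akmt4, against 3.65% and 2.83% of all tested probe sets (6.48% either way). Eef2k averaged 8.31 at hours 5 to 8 and 7.93 at time 0 in the control culture, a rise of 0.37 ± 0.12 (SE; adjusted p = 0.0422). Neither call held without letter b (0.44, adjusted p = 0.134 for Eef2k, and -0.54, adjusted p = 0.329 for Eef1akmt4) or without letter c (0.31, adjusted p = 0.386, and -0.39, adjusted p = 0.381). That of Eef2k was also lost without letter a (0.37, adjusted p = 0.0732). With the letter as a block 3 were higher and 5 lower, against 11.4% and 7.98% of all tested probe sets. Within the insulin culture 1 gene was called, Eif2b2 with a rise of 0.21 ± 0.055 (SE; adjusted p = 0.034), against 0.515% of all tested probe sets higher and 0.943% lower (1.46% either way). That call was lost without any 1 of the letters. The F test over the 8 hourly differences called 2 genes, Eif2s2 (adjusted p = 0.00246) and Eif3f (0.038), against 2.42% of all tested probe sets, and 11 with the letter as a block, against 11.5%. Without letter b, or without letter c, it called neither.

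Initiation and elongation were set against each other as medians over their genes within each letter. Over hours 1 to 8 letters a, b and c gave initiation medians of 0.033, 0.034 and 0.032 and elongation medians of -0.053, 0.008 and 0.032. Initiation minus elongation was thus 0.086, 0.026 and 0.00021, with a mean of 0.037 ± 0.044 (SD, n = 3 letters), smaller than the spread between letters. At hours 5 to 8 it was 0.13, 0.083 and 0.051, or 0.089 ± 0.042 (SD, n = 3), above 0 in each letter. At hours 1 and 2 it was 0.034 ± 0.065, and at time 0 it was -0.037 ± 0.005 (SD, n = 3 each). No test was made of these medians, since the genes were chosen and are not replicates.

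By hour, the initiation median averaged 0.00012 at hour 1, 0.042 at hours 4 and 6, and 0.082 ± 0.037 (SD, n = 3) at hour 8. The elongation median, averaged over letters in the same way, was -0.013 at hour 1 and 0.017 ± 0.048 (SD, n = 3) at hour 8. Taken over differences of group means instead, the hour 8 median was 0.058 for initiation and -0.046 for elongation, so the sign for elongation depended on the measure. At hour 8, 28 of the 38 initiation genes and 3 of the 10 elongation genes had a difference of group means above 0, against 49.5% of all tested probe sets. Before insulin, at time 0, these were already 24 of 38 and 7 of 10, against 52.7%. The time 0 medians, averaged over letters, were 0.025 ± 0.06 for initiation and 0.062 ± 0.061 for elongation (SD, n = 3 each). Moving Eif5a and Eif5a2 to elongation changed the mean over hours 1 to 8 to 0.038, and leaving out the modifying enzymes and binding proteins changed it to 0.054.

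**Figure D5:**
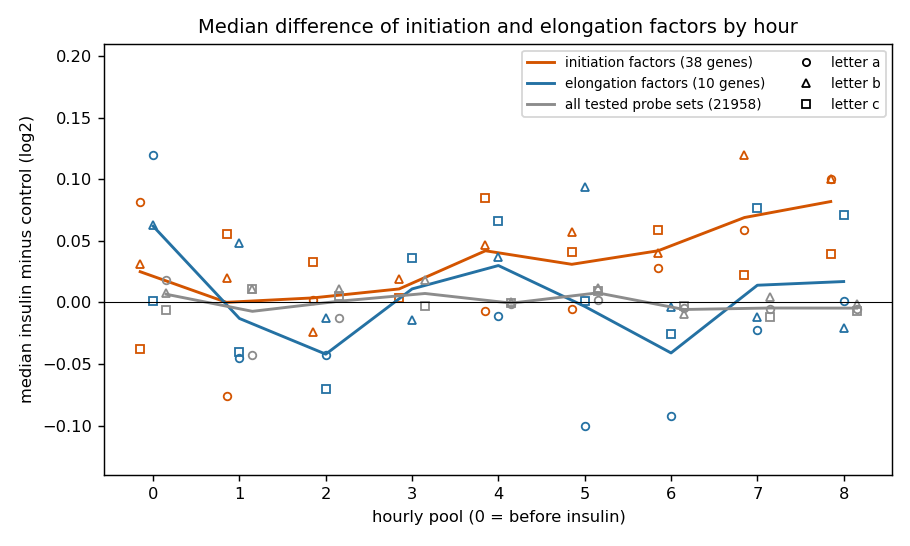
Median insulin minus control difference (y axis, log2) over the 38 initiation genes, the 10 elongation genes and all tested probe sets by hourly pool (x axis, 0 before insulin). Symbols are letters a, b and c, lines join their means. The initiation line reached 0.082 at hour 8, the elongation line stayed between -0.042 and 0.062.

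Other genes of translation were read in the same fit over hours 1 to 8, in which 5.53% of all tested probe sets were called higher and 6.63% lower. Of the 12 genes that the choice leaves out (the cap-binding genes, their binding proteins, the eIF2 kinases and Eef1e1), 4 were higher and 2 lower. Of 7 measured genes of termination and recycling 2 were higher, Etf1 by 0.18 (adjusted p = 1.78e-04) and Denr by 0.18 (adjusted p = 0.0108). The 8 mitochondrial translation factors and the 2 hypusine enzymes held no called gene (limma). Of 7 measured genes linked to recruitment of the small subunit none was higher and 2 were lower. These were Pdcd4 at -0.75 (adjusted p = 3.04e-12) and Paip2 at -0.38 (adjusted p = 2.96e-07). The 42 cytosolic ribosomal proteins had 2 higher and 2 lower genes and a median of 0.0041, against 0.032 for the initiation factors. The 2 higher, Rps13 and Rpl30, were read at dim probe sets (levels 5.72 and 5.52, where the lowest tested mean was 5.04). The 2 lower, Rps29 and Rpl22, had levels of 13.94 and 12.52.

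The several-symbol probe sets left out of the 48 genes included all 3 of Eif5, the GTPase-activating factor of start codon recognition, which also carry the symbol of a pseudogene. These differed by 0.12, 0.18 and 0.27, with adjusted p = 0.139, 7.17e-05 and 0.0274. Signals of the gene and of its pseudogene copy cannot be told apart on them.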

How the data were processed

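L6 myotubes were profiled on Affymetrix rat arrays. The authors subtracted background, applied quantile normalization and summarized probes with RMA (version not given in the sources used here), and what was deposited is 1 log2 value for each of 31099 probe sets on each of 53 arrays. Quantile normalization gives all arrays nearly the same distribution (medians 6.30 to 6.37), so a shift shared by all transcripts would not be seen, and the number of arrays limits precision. Each array was mapped to culture, hour and letter by its labels. Detection calls were not used, and the 21958 brightest probe sets, without 57 manufacturer's controls, were tested.

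One mean per group of culture and hour was fitted (limma 3.58.1, R 4.3.3) with a variance trend and Benjamini-Hochberg adjustment over all tested probe sets at a threshold of 0.05. Tests of a difference are two-sided, and the F test has no direction. The fit was also run on simulated data with independent noise on each array, and its outcome is not given here. No error rate for arrays that share a letter can be drawn from it. The labels give each array a repeat letter, and the protocol says the course was repeated on different days without tying a letter to a day. Letters were taken as pairing the arrays because deviations of same-letter, same-hour arrays correlated at 0.21 to 0.79, above 0.1 in all 26 pairs. The main fit had no block. Alternatives were the letter as a block, leaving out letters or letter b at hours 0 to 5, no filter, no variance trend, centred arrays, 1 mean per letter, differences relative to time 0, and the mean of all probe sets of a gene.

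Members, lists and tests were chosen with earlier results of these data known. Genes given in full were up to 8 per direction called over hours 1 to 8 with the same sign in all letters, up to 3 per direction called for the change over time or the control course, and a fixed list of factors from each step. Promoters came from RefSeq (GRCr8).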

Additional observations from a re-analysis of the deposited data

Results flagged for a closer look

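The difference between the cultures changed from hours 1 and 2 to hours 5 to 8 for 2 translation factors (limma, adjusted over all tested probe sets). Eif2b2, the beta subunit of eIF2B, changed by 0.30 (adjusted p = 0.00517), and Eef1akmt4, an eEF1A methyltransferase, by 0.66 (adjusted p = 0.0434), in the same direction in all 3 letters. Over all alternatives run, the change of Eif2b2 lay between 0.26 and 0.36 and that of Eef1akmt4 between 0.63 and 0.69. Neither was called with 1 mean per letter (adjusted p = 1). At time 0 the differences were -0.13 for Eif2b2 and -0.058 for Eef1akmt4, and their part in the changes was not tested.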

How the results depend on the processing

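Apart from the block and the differences relative to time 0, the share of all tested probe sets called under each alternative was not recorded. For those alternatives, here and above, the counts cannot be told from a general gain or loss of calls. For the mean over hours 1 to 8, leaving out 1 letter at a time gave 1 to 13 translation factors higher and 1 to 4 lower, beside 8 and 3. Leaving out letter b at hours 0 to 5 gave 1 and 1, the letter as a block (replicate block) 13 and 5. Differences relative to time 0 gave 0 and 0, as did 1 mean per letter with or without the block (the blocked version was added after seeing the data). For hours 5 to 8 (5 and 2), leaving out 1 letter gave 0 to 9 higher and 0 to 2 lower, letter b left out at hours 0 to 5 gave 3 higher, the block 15 higher, 1 mean per letter 0 and 0, and its blocked version 1 and 0. For hours 1 and 2 (0 and 0), the block gave 1 lower and leaving out letter a gave 2 higher. The change over time (2 and 0) gave 6 and 3 with the block, 0 to 2 higher without 1 letter, 0 higher without letter b at hours 0 to 5 or with 1 mean per letter, and 1 with no filter. The F test (2 genes) called 11 with the block, 0 to 4 without 1 letter, 0 without letter b at hours 0 to 5, and 1 with no filter or with no variance trend, and 1 mean per letter could not be run for it.

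In the control course (1 and 1), the block gave 3 higher and 5 lower, leaving out 1 letter 0 higher and 0 to 5 lower, letter b left out at hours 0 to 5 or 1 mean per letter 0 and 0, no filter 0 higher, and centred arrays 0 higher and 2 lower. In the insulin course (1 and 0), the block gave 1 lower, and leaving out any letter, letter b at hours 0 to 5, no filter, centred arrays and 1 mean per letter each gave 0 higher. Initiation minus elongation (0.037) ran from 0.013 to 0.056 without 1 letter. Among the genes given in full, signs turned for 6 that lay near 0 and were not called in the fit without a block. Without 1 letter at a time, Eef1a2 ran from -0.00011 (without a) to 0.038 (without b), Eef1g from -0.032 (without b) to 0.00037 (without a), Eif2b5 from -0.058 (without a) to 0.0034 (without b), Eif5a from -0.056 (without a) to 0.007 (without b) and Eef1a1 from -0.00015 (without b) to 0.076 (without a). Without letter b at hours 0 to 5 Eif2b5 (0.009) and Eif5a (0.0089) turned, on centred arrays Eif5a (0.00034) and Eef1b2 (0.0046), and relative to time 0 Eif5a (0.013), Eef1a1 (-0.002) and Eef1a2 (-0.02). The exception was Eef1g, at 0.11 (adjusted p = 0.0189) with the mean over its probe sets. Causes were not tested. The number of arrays, 3 letters per group, limits all values.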
